A study of Mus musculus with 12 samples.

Results

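The genes described here were 10 genes of hepcidin and iron handling, taken by symbol from the 22471 features of a transcriptome of cultured mouse hepatocytes. They were Hamp, Hamp2, Bmp6, Id1, Tfr2, Tfrc, Trf, Slc40a1, Fth1 and Ftl1, and all 10 passed the filter on low counts in every comparison. The gene set was chosen by symbol and has no threshold. It was proposed with measured differences of these same libraries known, so every comparison below counts as used in the choice, and the fold changes and adjusted p-values of these genes are given as description and not as independent evidence. Primary hepatocytes had been isolated from C57BL/6J mice (male, aged 6 weeks) by collagenase perfusion and a Percoll step, and were kept in medium with 10% serum. The 4 groups of 3 libraries each were control (vehicle), OA (0.2 mM oleic acid bound to albumin, the study's culture model of hepatic steatosis), BBR (15 µM benzbromarone, an inhibitor of the urate transporter URAT1 used against gout) and BBR+OA (both agents), all treated for 16 h. The paper does not say whether cultures without OA received albumin. If they did not, oleic acid and its carrier cannot be told apart in the OA comparisons. The sources do not say whether the 3 libraries of a group came from separate mice. P-values therefore measure the spread between these libraries, which may be technical. Cultures of this kind show liver cells under added fatty acid and not the liver of an animal fed fat, although the labels name liver as the tissue.

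Hepcidin, the product of Hamp, is the liver hormone that lowers iron in blood: it binds ferroportin, the iron exporter encoded by Slc40a1, and leads to its degradation. Hepatocytes raise Hamp when BMP ligands such as BMP6, which liver endothelial cells make, signal through SMAD proteins, and when IL-6 signals through STAT3. Iron itself acts on the messenger RNAs of other iron genes through iron regulatory proteins, which bind a short hairpin called the iron-responsive element and, when iron is scarce, stabilise the Tfrc message and block translation of ferritin and ferroportin.

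Total counts ranged from 15485508 in BBR replicate 2 to 23668379 in control replicate 3, where 3 counts correspond to 0.127–0.194 counts scaled to a library total of 1e+06 (CPM). No library stood apart. Mitochondrial genes took 5.71, 5.50 and 6.07% of counts in control and, without overlap, 6.89, 6.34 and 6.64% with BBR, against 5.63–6.28% with OA and 6.09–6.59% with both, and the part of this in the BBR differences was not tested. The summed level of 10 hepatocyte markers was 34202–42091 CPM, led by albumin (Alb, 27718–33930 CPM), so it says little about the others. Among those, Cps1 ranged over 8.24–204 CPM and Tat over 4.39–19.4 CPM. BBR against control called 3 of the 10 higher and 5 lower (adjusted p under 0.05 in edgeR), where 13.2% and 14.5% of all genes were. OA against control called 6 higher and 0 lower, where 21.3% and 21.5% were. The sums were 109–189 CPM for 12 Kupffer cell markers (147–189 CPM with BBR, led by Cd68) and 71.1–90.7 CPM for 10 liver endothelial markers. They were 27.0–34.4 CPM for 10 stellate markers and at most 0.904 CPM for 8 erythroid markers, 3 of which (Hbb-bs, Hbb-bt and Slc4a1) were at 0 in every library. The 6 cholangiocyte markers summed to 592–731 CPM in control, 241–271 CPM with OA, 392–425 CPM with BBR and 199–237 CPM with both, mostly from Spp1, which other liver cells also express.

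The sequences below are shown because they are the elements through which these genes are known to be regulated. They also show a marked motif that Hamp has and its neighbour Hamp2 lacks, beside another that both have. Whether these letters have a part in the levels of Hamp and Hamp2 was not tested. Hamp (ENSMUSG00000050440, chr7:30942368-30944032, minus strand, GENCODE M21 on GRCm38) and Hamp2 (ENSMUSG00000056978, chr7:30922372-30924681, minus strand) lie 17686 bases apart and share 388 of 437 aligned transcript positions (88.8%). A long noncoding RNA gene, Gm44662, is annotated across both on the opposite strand and has no row in the files. The 250 bases before each RefSeq start (GRCm38.p6, given 5′ to 3′ on the gene's own strand) were identical at 227 of 253 aligned positions (89.7%). Capitals mark the letters GGCGCC, the core of a known BMP-responsive site, and TTCNNNGAA, the palindrome that STAT3 is known to bind, each searched on both strands, where no match overlapped another.
Hamp, chr7:30944030-30944279: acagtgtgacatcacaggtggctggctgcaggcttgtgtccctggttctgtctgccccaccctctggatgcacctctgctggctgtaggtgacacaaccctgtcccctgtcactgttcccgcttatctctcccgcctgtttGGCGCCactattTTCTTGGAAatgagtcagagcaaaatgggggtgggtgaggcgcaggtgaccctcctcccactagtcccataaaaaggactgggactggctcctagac
Hamp2, chr7:30924182-30924431: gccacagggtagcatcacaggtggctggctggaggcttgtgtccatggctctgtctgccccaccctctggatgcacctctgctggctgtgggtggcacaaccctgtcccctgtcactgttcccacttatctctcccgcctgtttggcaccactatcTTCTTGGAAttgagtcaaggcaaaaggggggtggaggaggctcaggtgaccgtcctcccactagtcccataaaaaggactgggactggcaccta

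Hamp held GGCGCC at -109 to -104 from its start and TTCTTGGAA at -97 to -89. Hamp2 held TTCTTGGAA at -94 to -86, but at the aligned place its BMP-type letters read GGCACC, a G4A difference counted from 1 at the 5′ end of the motif. Over 32851 mouse promoters of the same length, GGCGCC was present in 9.59% and TTCNNNGAA in 7.02%. Of the 7 genes with a promoter entry (Hamp, Hamp2, Bmp6, Tfr2, Tfrc, Fth1 and Ftl1), Tfrc also held GGCGCC, at -89 to -84 of its first listed start. The letters ACGTG, the core of a hypoxia-response element, were found in 16.6% of all promoters. Among these genes they were found at the second listed start of Tfrc, the first and second of Tfr2, and that of Bmp6. The shares are per promoter, and genes with several listed starts had several promoters searched, so matches per gene cannot be set against them. A direct repeat of AGGTCA with 1 base between, the type of site that PPAR binds with RXR, was searched with exact letters only. It was found in none of the 7 and in 11 of all 32851 promoters (0.0335%). With so rare a match, its absence from these genes says nothing about whether PPAR binds them.

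Iron-responsive elements were looked for in the untranslated regions of GENCODE M21 as a bulged C below 5 paired bases and a CAGTGN loop, with at least 3 of 4 pairs below the bulge. They were found in 4 of the 10 genes and are shown because these genes can also be set by iron after transcription, with the loop in capitals.
Tfrc 3′ UTR, chr16:32631219-32631247: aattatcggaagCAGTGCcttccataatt
Tfrc 3′ UTR, chr16:32631598-32631626: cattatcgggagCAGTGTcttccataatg
Tfrc 3′ UTR, chr16:32631663-32631691: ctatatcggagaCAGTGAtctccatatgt
Tfrc 3′ UTR, chr16:32631710-32631738: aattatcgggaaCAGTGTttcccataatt
Slc40a1 5′ UTR, chr1:45925465-45925493: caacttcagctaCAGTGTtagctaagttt
Fth1 5′ UTR, chr19:9982732-9982760: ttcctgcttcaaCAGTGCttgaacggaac
Ftl1 5′ UTR, chr7:45459779-45459807: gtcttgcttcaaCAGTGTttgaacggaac

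Tfrc and Fth1 lie on the plus strand, and Slc40a1 and Ftl1 on the minus strand, each sequence being given on the strand of its gene. The same search found an element in the 5′ UTR of 7 of 20916 genes (0.0335%) and in the 3′ UTR of 20 of 21707 (0.0921%). Messages with a 3′ element are the kind known to be stabilised by iron regulatory proteins, and those with a 5′ element the kind whose translation is blocked, which RNA-seq does not measure.

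Levels of the 10 genes spanned the range from carrier and storage proteins to a ligand near 3 FPKM. On the length-scaled FPKM scale, the means of the 3 control libraries were 4357 for Fth1 and 2899 for Ftl1, the heavy and light chains of the iron-storage protein ferritin, and 4074 for Trf, the plasma iron carrier transferrin. Hamp followed at 416 ± 7.06 (SD, n = 3), then Id1, a transcriptional inhibitor that BMP signals induce, at 105 ± 1.42 FPKM. The iron sensor Tfr2 was at 43.4 ± 2.06 FPKM, the uptake receptor Tfrc at 30.5 ± 2.51 FPKM and Slc40a1 at 29.5 ± 1.42 FPKM. Bmp6 (2.97 ± 0.733 FPKM) and Hamp2 (2.37 ± 0.738 FPKM) came last. The ranges of Fth1 and Trf overlapped, as did those of Tfrc and Slc40a1 and of Bmp6 and Hamp2, so those neighbours in the order did not differ beyond their spread.

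**Figure D1:**
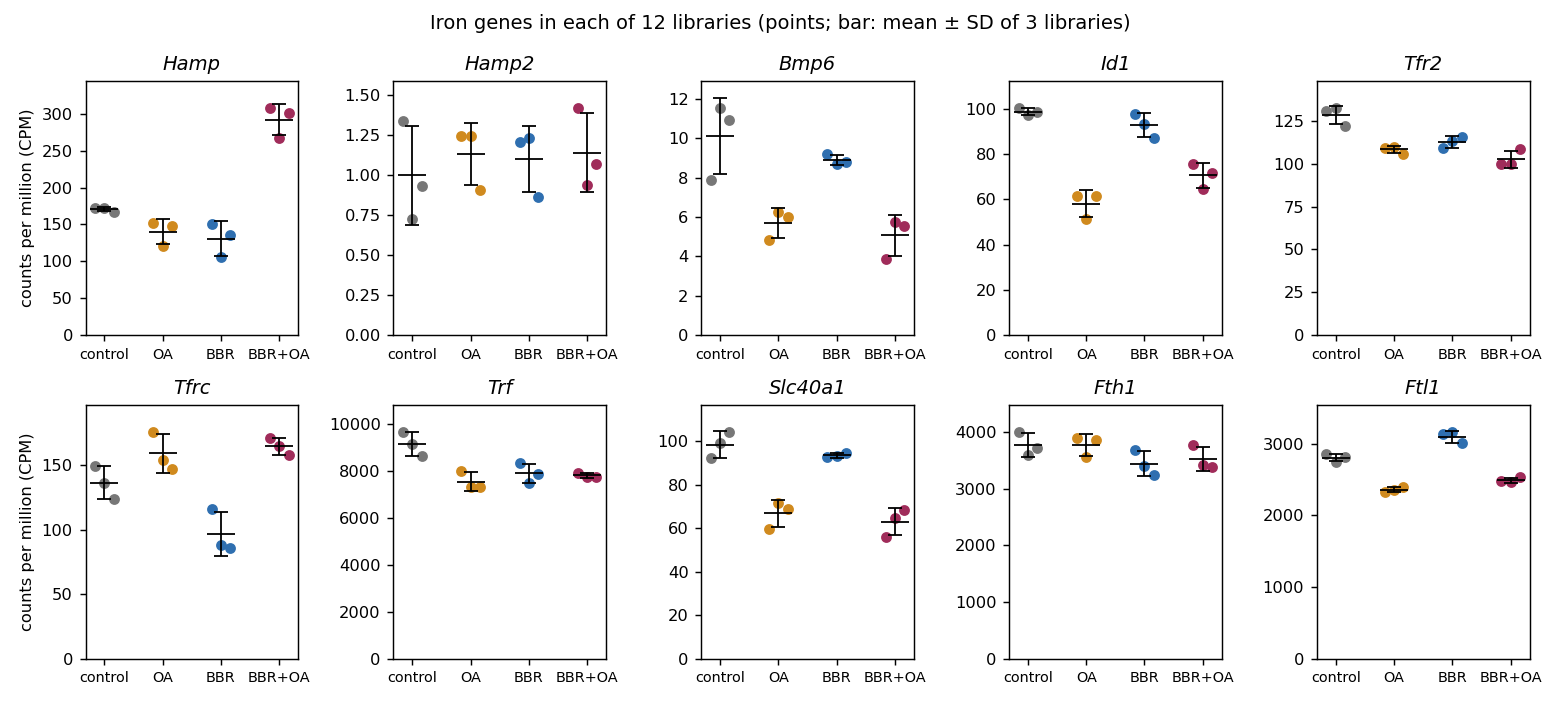
Level of each of the 10 genes in CPM (y axis, from 0, a separate scale per gene) in the 3 libraries of each of 4 groups (x axis), with points for libraries and bars for mean ± SD. Hamp in BBR+OA, at 268 to 308 CPM, lies above all 9 other libraries, while Id1, Bmp6 and Slc40a1 are lowest in the OA and BBR+OA groups.

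Hamp was the gene in which the response to benzbromarone turned with oleic acid. It stood at 172, 173 and 167 CPM in the control libraries and at 151, 106 and 136 CPM with BBR, and without overlap the BBR libraries were lower. With OA alone it stood at 152, 121 and 148 CPM, also below every control library. With both agents it stood at 308, 268 and 301 CPM, above every other library of the series.

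In edgeR's quasi-likelihood test with Benjamini-Hochberg adjustment over all genes tested, the Hamp difference of BBR against control was -0.36 ± 0.08 on the log2 scale (± SE here and below), with an adjusted p of 0.00423. For BBR+OA against OA it was 1.05 ± 0.08, a 2.07-fold higher level, with an adjusted p of 2.04e-06. The BBR effect with oleic acid minus that without it, tested as an interaction over all 12 libraries, was 1.42 ± 0.13 log2 units (adjusted p = 5.69e-06). The OA effect on Hamp also had opposite signs, at -0.24 ± 0.07 without BBR (adjusted p = 0.0128) and 1.17 ± 0.09 with it. The lower Hamp level with each agent alone was the less stable result: DESeq2 gave an adjusted p of 0.0586 for BBR against control, and leaving out BBR replicate 2, the shallowest library, moved the log2 difference to -0.23. Leaving out OA replicate 2 moved OA against control to -0.14 with an adjusted p of 0.0523. The interaction stayed between 1.29 and 1.54 log2 units under all 17 alternatives.

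Hamp2, a neighbouring copy whose product is not known to act as the iron hormone, stood at 0.724 to 1.42 CPM over all 12 libraries. Its groups overlapped in each of the 4 comparisons and its differences lay between 0.02 and 0.22 log2 units, with SE of 0.28 to 0.31 and no call. Hamp and Hamp2 share 16.6% of Hamp's stretches of 50 bases, and how the counting divided reads between them is not given in the sources used here.

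**Figure D2:**
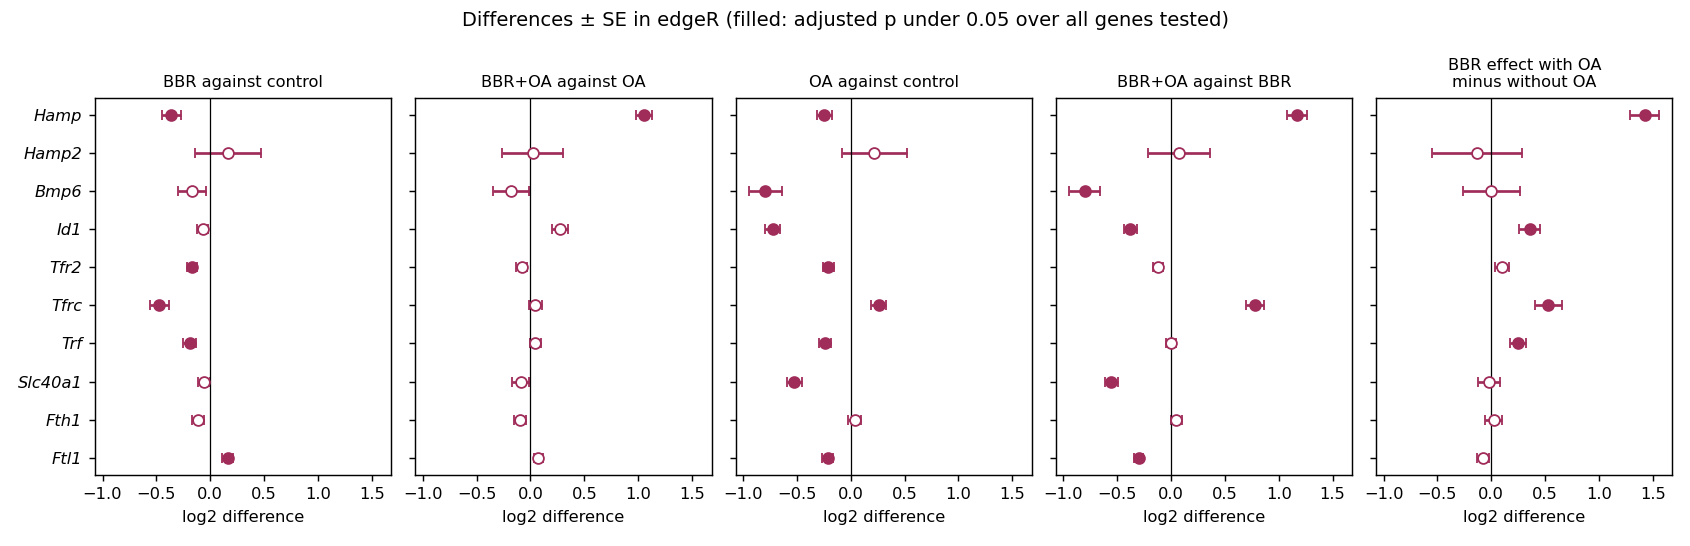
Log2 difference ± SE (x axis) for each of the 10 genes (y axis) in the 4 comparisons between groups and, at right, in the interaction, with filled points for adjusted p under 0.05 over all genes tested. Hamp lies at -0.36 for BBR against control and at 1.05 for BBR+OA against OA, while Hamp2 and Fth1 have open points in every panel.

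Across the 10 genes, BBR against control called 1 higher and 4 lower, where 27.7% of all 12555 tested genes were called (13.2% higher and 14.5% lower). The lower genes were Hamp, Tfrc, Tfr2 and Trf, and the higher one was Ftl1, and the median difference of the 10 genes was -0.14 log2 units against -0.00085 over all tested genes. BBR+OA against OA called 1 of 10, Hamp, where 4.59% of 12278 genes were called (1.95% higher and 2.63% lower). The comparisons with oleic acid called more. OA against control called 1 of 10 higher and 7 lower, where 42.8% of 12418 genes were called (21.3% higher and 21.5% lower), with a median of -0.23 against -0.01. BBR+OA against BBR called 2 higher and 4 lower, where 38.9% of 12416 genes were called (20.1% higher and 18.8% lower). The interaction called 4 of 10, all higher, in Hamp, Tfrc, Trf and Id1, where 12.2% of 12742 genes were called (6.87% higher and 5.31% lower). OA against control and BBR against control share the control libraries, and the other pairs of comparisons likewise share a group, so their calls are not independent of each other.

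Among the upstream signals, Bmp6, a BMP ligand that induces Hamp, fell with oleic acid. It stood at 7.89, 11.5 and 10.9 CPM in control and at 4.84, 6.25 and 6.02 CPM with OA. It stood at 9.19, 8.72 and 8.78 CPM with BBR and at 3.89, 5.78 and 5.56 CPM with both agents. The OA libraries lay below every library without OA, and the BBR and control libraries overlapped. The log2 difference was -0.79 ± 0.15 for OA against control (adjusted p = 0.000765 in edgeR) and -0.80 ± 0.14 for BBR+OA against BBR. The difference between the BBR effects was 0.00 ± 0.26, an SE wide enough that a change of the size seen for Id1 would not be detected. BBR against control was not called (-0.17 ± 0.13), and was called without control replicate 1 (-0.32, adjusted p = 0.0413).

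Bmp6 is an endothelial gene in liver, and in bulk samples fewer cells of a type and less RNA per cell cannot be told apart. The summed endothelial markers were 76.6–85.9 CPM in control and 71.1–90.7 CPM with OA. Of the 8 markers tested 1 was called higher (Stab2) and 1 lower (Fcgr2b), where 21.3% and 21.5% of all genes were. In BBR+OA against BBR, 3 of 8 were called higher and 3 lower, where 20.1% and 18.8% of all genes were. The median difference of the markers was -0.05 log2 units in the former comparison and -0.24 in the latter, against -0.01 over all tested genes in each. The part of endothelial cells in the Bmp6 differences was not tested. Bmp6 (chr13:38345107-38500302) also overlaps Txndc5 on the opposite strand, which took 4879–7699 counts per library, and whether the counting used strand is not given in the sources used here. The part of that overlap in the Bmp6 values was not tested.

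Id1 (chr2:152736251-152737410), the direct BMP target, was also lower with OA. It stood at 100, 97.1 and 98.4 CPM in control, at 61.3, 51.3 and 61.6 CPM with OA, at 97.8, 93.2 and 87.2 CPM with BBR, and at 75.5, 64.5 and 71.8 CPM with both. Every OA library was below every library without OA, and every BBR+OA library was above every OA library. The log2 difference was -0.73 ± 0.07 for OA against control (adjusted p = 1.02e-06 in edgeR) and -0.38 ± 0.06 for BBR+OA against BBR. For BBR+OA against OA it was 0.28 ± 0.07 with an adjusted p of 0.0504, just outside the threshold, and it was called under 5 of the other settings, with adjusted p-values from 0.00105 (replicate block) to 0.0489 (RLE normalization). Leaving out OA replicate 1 or OA replicate 3 also brought it inside, at adjusted p of 0.0433 and 0.0275. The interaction was 0.36 ± 0.09 (adjusted p = 0.0184), and was lost without OA replicate 2 (0.25, adjusted p = 0.0781), BBR replicate 3 (adjusted p = 0.0519), BBR+OA replicate 1 (adjusted p = 0.0758) or BBR+OA replicate 3 (adjusted p = 0.0625).

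Other genes of the BMP pathway were described from a list of 20, all tested. OA against control called 3 of 20 higher and 7 lower, with a list median of -0.11 log2 units against -0.01 over all tested genes. Of all genes tested 42.8% were called and 21.5% were lower, so the number called was near the background and is no result about the list. The single genes that were lower included targets that BMP signals are known to induce: Atoh8, a transcription factor that acts on Hamp, at -1.38 ± 0.13, Id3 at -0.94 ± 0.05, Id2 at -0.91 ± 0.08 and the inhibitory Smad6 at -1.59 ± 0.20 log2 units. They also included the ligand Bmp2 (-0.68 ± 0.24), the iron sensor Hfe (-0.69 ± 0.06) and Tmprss6, a protease that cleaves the co-receptor hemojuvelin (-0.47 ± 0.05). Smad7, an inhibitor that BMP signals also induce, was not called (0.09 ± 0.07).

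The list's higher genes with OA were Smad4, Fkbp1a and Erfe. Fkbp1a, which binds and restrains BMP receptors, was at 234, 214 and 218 CPM in control and at 318, 329 and 311 CPM with OA (0.56 ± 0.05 log2 units). Erfe encodes erythroferrone, a hormone that captures BMP ligands and is known from red cell precursors. It stood at 1.03, 0.628 and 0.338 CPM in control and at 5.24, 5.28 and 3.96 CPM with OA (2.92 ± 0.28 log2 units, adjusted p = 1.34e-06 in edgeR). With BBR it stood at 0.696, 0.646 and 0.485 CPM and with both agents at 4.04, 3.12 and 3.43 CPM, so the OA and non-OA libraries did not overlap, while the erythroid markers stayed at or below 0.904 CPM in sum. Erfe, Smad6, Smad7, Id3, Hfe, Bmp2 and Tmprss6, like Smad4 above and Alad, Urod, Ppox and Fech below, were named after their values had been seen.

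With both agents, the libraries of Id1, Id2, Id3, Atoh8 and Smad6 lay below those of control, those of Smad7 overlapped control and those of Hamp lay above. BBR+OA was not tested against control, so no share of all genes can be set beside this. Id3, Smad6 and Smad7 were named after their values were seen, and the cause of the difference from Hamp was not tested. Atoh8 was at 9.94, 10.7 and 10.9 CPM in control, 3.49, 3.50 and 4.72 CPM with OA, 9.47, 6.39 and 8.67 CPM with BBR, and 6.52, 6.51 and 7.15 CPM with both. The BBR+OA libraries were above every OA library and below every control library. Its difference of BBR+OA against OA was 0.77 ± 0.15 log2 units (adjusted p = 0.00930 in edgeR), and it was lost without OA replicate 2 (0.69, adjusted p = 0.0594) or BBR+OA replicate 3 (0.73, adjusted p = 0.0553). Id2, at 80.6, 70.6 and 92.3 CPM with OA and 105, 97.1 and 108 CPM with both, was also higher (0.34 ± 0.08, adjusted p = 0.0266). Id3 (0.20 ± 0.06, adjusted p = 0.0570) and Smad6 (0.43 ± 0.29) were not called. Id1, Id2, Id3, Atoh8 and Smad6 had BBR+OA means under their control means, Smad7 had a mean of 19.3 CPM against 19.0 CPM, and the BBR+OA mean of Hamp, 292 ± 21.4 CPM, was above its control mean of 171 ± 2.90 CPM.

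**Figure D3:**
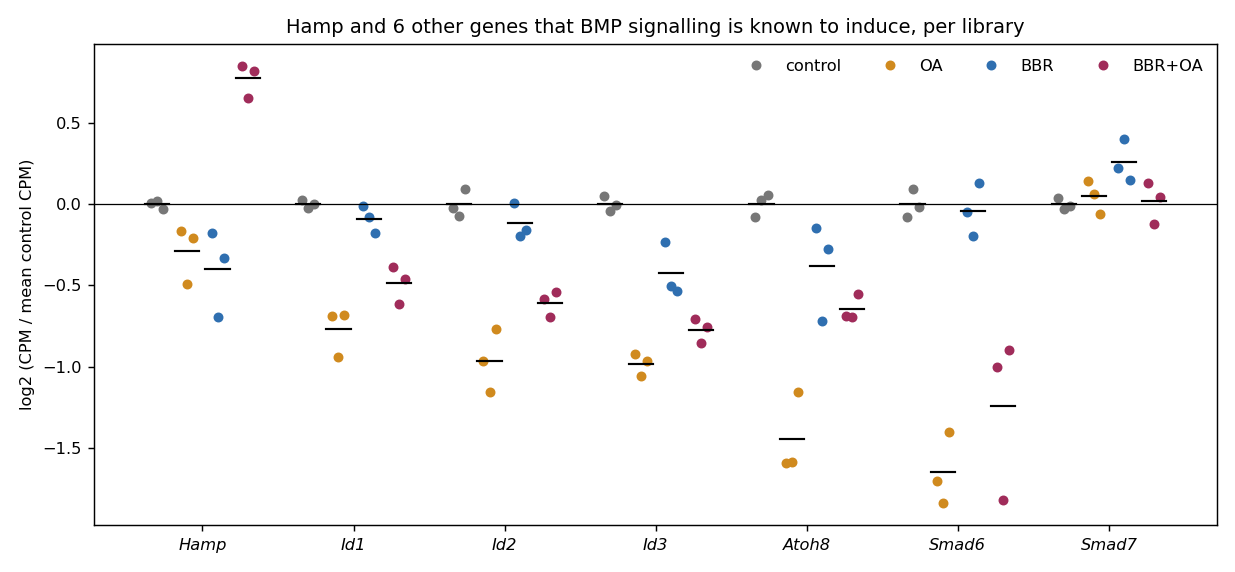
Log2 ratio of each library's CPM to the mean control CPM (y axis) for Hamp and 6 other genes known to be induced by BMP signals (x axis), with points for libraries coloured by group and bars for the mean of 3. Hamp is the gene of the 7 whose 3 BBR+OA libraries all lie well above 0, while Id1, Id2, Id3, Atoh8 and Smad6 lie below 0 with OA and with both agents.

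Hjv, the hemojuvelin co-receptor of the BMP receptors, was lower in the libraries with BBR alone than in all others. It stood at 14.4, 18 and 18.4 CPM in control and at 9.10, 7.17 and 10.02 CPM with BBR, without overlap (-0.93 ± 0.12 log2 units, adjusted p = 2.76e-05 in edgeR). It stood at 12, 12.6 and 16 CPM with OA and at 16.5, 16.6 and 16.3 CPM with both agents, a difference of 0.27 ± 0.10 that was not called (adjusted p = 0.160). The interaction was 1.21 ± 0.18 log2 units (adjusted p = 0.000189). In the interaction the 20-gene list had 5 genes called higher (Hjv, Atoh8, Id3, Hfe and Id2) and 2 lower (the receptor Acvr1 and the Hjv partner Neo1), with a list median of 0.10 against 0.01 over all tested genes, of which 6.87% were called higher and 5.31% lower. Acvr1 was lower with both agents than with OA (-0.40 ± 0.07, adjusted p = 0.00622), and Neo1 was higher with BBR than in control (0.33 ± 0.05, adjusted p = 0.000246).

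Of the 10 genes listed for the IL-6 and STAT3 arm, 9 were tested and Il6 itself was too low. OA against control called 5 higher and 2 lower, with a list median of 0.25 log2 units against -0.01 over all tested genes, of which 21.3% were called higher and 21.5% lower. Il6ra, the IL-6 receptor, was at 16.5, 15.7 and 17 CPM in control and at 24.4, 25.3 and 22.8 CPM with OA (0.59 ± 0.07), and Jak2, a kinase of the receptor, was lower with OA (-0.30 ± 0.06). Socs3, a STAT3 target that feeds back on the pathway, was higher with OA than in control (0.39 ± 0.12, adjusted p = 0.0203 in edgeR) and lower with both agents than with OA, at 7.38, 5.83 and 6.21 CPM against 8.50, 9.11 and 9.08 CPM (-0.46 ± 0.12, adjusted p = 0.0399). The second Socs3 call was lost in DESeq2 and without 5 of the 6 single libraries, OA replicate 1, 2 or 3 and BBR+OA replicate 2 or 3, with adjusted p-values from 0.0554 to 0.161.

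A pair of transcription factors of this list is known to act on the Hamp promoter. Creb3l3, a membrane-bound factor of the endoplasmic reticulum, rose with each agent and further with both. It stood at 49.7, 50.6 and 52.4 CPM in control, 78.8, 87.1 and 88.1 CPM with OA, 91.9, 95.3 and 85 CPM with BBR, and 145, 135 and 145 CPM with both. Its differences were 0.85 ± 0.05 for BBR against control and 0.74 ± 0.05 log2 units for BBR+OA against OA (adjusted p of 2.30e-08 and 2.53e-06), and the interaction was not called (-0.10 ± 0.08, adjusted p = 0.444). Cebpa, which keeps basal Hamp expression, was at 82.8, 82.3 and 88.2 CPM in control and at 53.9 to 65.3 CPM in the 9 other libraries. It was lower with BBR (-0.50 ± 0.06) and with OA (-0.44 ± 0.06), and did not pass the test for BBR+OA against OA (-0.11 ± 0.06, adjusted p = 0.386).

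Tfrc (chr16:32608920-32632794), the receptor that brings transferrin-bound iron into cells, was the other gene of the 10 with a large turn. It stood at 150, 136 and 124 CPM in control and at 116, 87.9 and 86.0 CPM with BBR, without overlap. It stood at 176, 154 and 147 CPM with OA and at 172, 165 and 158 CPM with both agents, and these groups overlapped. BBR against control was -0.47 ± 0.09 log2 units (adjusted p = 0.000786 in edgeR), and BBR+OA against OA was 0.05 ± 0.06 (adjusted p = 0.744).

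The interaction for Tfrc was 0.53 ± 0.13 (adjusted p = 0.00920) and kept its call under all 17 alternatives. OA against control was 0.26 ± 0.07 (adjusted p = 0.00804) with overlapping libraries, and BBR+OA against BBR was 0.78 ± 0.09. Tfr2 (chr5:137569840-137587481), the liver receptor that senses transferrin iron and takes part in Hamp control, had no such turn. It stood at 131, 132 and 122 CPM in control, 109, 110 and 106 CPM with OA, 109, 113 and 116 CPM with BBR, and 99.6, 99.9 and 108 CPM with both, so the control libraries were above all 9 others. Its call for BBR against control (-0.17 ± 0.05, adjusted p = 0.0130) was lost without control replicate 2 or BBR replicate 1, at adjusted p of 0.0647 and 0.0639. BBR+OA against BBR (-0.12 ± 0.05, adjusted p = 0.0621) was called under upper-quartile scaling (adjusted p = 0.0152), with the replicate block, and without BBR replicate 1 or BBR+OA replicate 3 (adjusted p of 0.0419 and 0.0298).

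**Figure D4:**
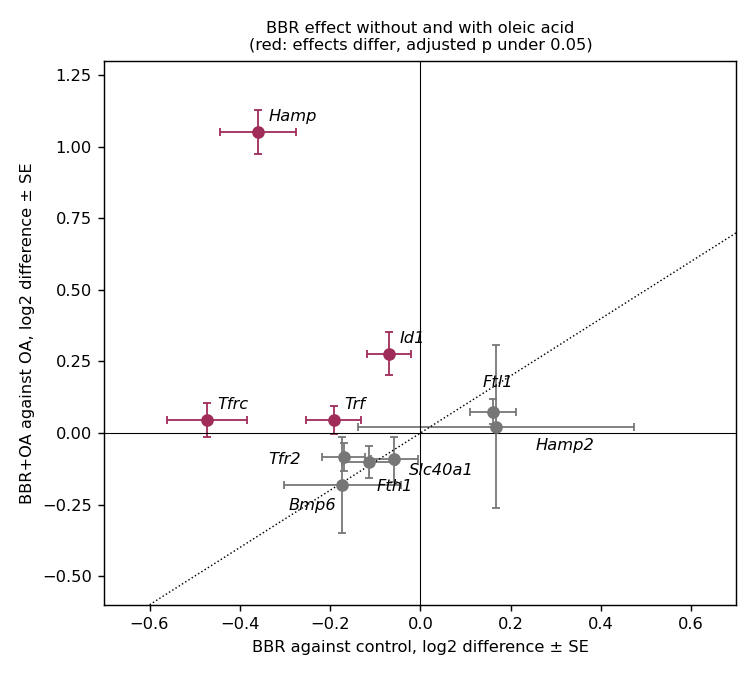
Log2 difference ± SE of BBR against control (x axis) and of BBR+OA against OA (y axis) for the 10 genes, with the dotted line at equal effects and red points for genes whose interaction passed an adjusted p of 0.05. Hamp lies at -0.36 and 1.05, Tfrc at -0.47 and 0.05, and the 6 grey genes lie near the dotted line.

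Trf (chr9:103204001-103230444), the iron carrier that hepatocytes secrete, was the gene of the 10 with the most counts in each library. It ranged from 8635 to 9673 CPM in control, 7316 to 8014 CPM with OA, 7501 to 8334 CPM with BBR and 7765 to 7918 CPM with both, so the control libraries were above all others. OA against control was -0.24 ± 0.06 log2 units (adjusted p = 0.00417 in edgeR) and BBR against control -0.19 ± 0.06 (adjusted p = 0.0250). The BBR call was lost without control replicate 1 or 2 or BBR replicate 2 or 3, at adjusted p of 0.0589 to 0.125. The interaction (0.25 ± 0.07, adjusted p = 0.0303) was lost without control replicate 1 or 2, OA replicate 2, BBR replicate 2 or any BBR+OA library, at adjusted p of 0.0566 to 0.130. Trf shares 79.8% of its 50-base stretches with Gm20425, a same-strand gene with 376–653 counts, so its level is uncertain where reads were divided between them.

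Slc40a1 (chr1:45908068-45926523), which encodes the exporter ferroportin that hepcidin removes, fell with oleic acid, while its difference of BBR against control was -0.06 ± 0.05 log2 units (adjusted p = 0.463 in edgeR). It stood at 92.1, 99.1 and 104 CPM in control, 59.8, 71.7 and 69.1 CPM with OA, 92.6, 93.4 and 94.8 CPM with BBR, and 56.2, 64.6 and 68.3 CPM with both. All 6 libraries with OA were below all 6 without it. The log2 difference was -0.52 ± 0.07 for OA against control (adjusted p = 3.55e-05 in edgeR) and -0.56 ± 0.06 for BBR+OA against BBR, and the difference between the BBR effects was -0.02 ± 0.10 (adjusted p = 0.920). Slc40a1 is also a Kupffer cell gene. Of 11 Kupffer markers tested in OA against control, 6 were called lower (Cd5l, Clec4f, Vsig4, C1qa, C1qb and C1qc) and 3 higher (Adgre1, Marco and Lyz2). Their median difference was -0.47 log2 units against -0.01 over all tested genes, of which 21.3% were called higher and 21.5% lower. In BBR+OA against BBR, 3 of 11 were called higher and 3 lower, where 20.1% and 18.8% of all genes were. The median of the Kupffer markers there was -0.24 against -0.01. The sums, 109–124 CPM in control and 116–126 CPM with OA, were led by Cd68 (59.4–150 CPM over all libraries). Such sums say little about the other markers. The part of Kupffer cells in the Slc40a1 difference was not tested.

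The ferritin chains differed from each other. Fth1 (chr19:9980598-9985098), the heavy chain with ferroxidase activity, ranged over 3595–4001 CPM in control, 3553–3893 CPM with OA, 3249–3685 CPM with BBR and 3390–3774 CPM with both, and it was called in none of the 4 comparisons or the interaction. Ftl1 (chr7:45457944-45459884), the light chain, was at 2853, 2746 and 2818 CPM in control, 2325, 2351 and 2394 CPM with OA, 3127, 3163 and 3003 CPM with BBR, and 2475, 2460 and 2528 CPM with both. No group overlapped another. Its differences were 0.16 ± 0.05 for BBR against control (adjusted p = 0.0255 in edgeR) and -0.21 ± 0.05 log2 units for OA against control (adjusted p = 0.00301). The BBR call was lost without control replicate 2, BBR replicate 1 or BBR replicate 2, at adjusted p of 0.106, 0.0508 and 0.0991. Ftl1 shares 78.9% of its 50-base stretches with 15 other genes, Ftl1-ps1 among them, so its count depends on how shared reads were assigned and is uncertain.

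The wider iron pathway was described from 6 lists with 93 genes in the files, the BMP and IL-6 lists included. BBR against control called 10 of 89 tested genes higher and 21 lower, BBR+OA against OA 4 higher and 6 lower of 88, OA against control 19 higher and 24 lower of 89, and BBR+OA against BBR 21 higher and 20 lower of 89. The interaction called 14 higher and 7 lower of 89. Of all genes tested, 13.2% were called higher and 14.5% lower for BBR against control, and 1.95% and 2.63% for BBR+OA against OA. The shares were 21.3% and 21.5% for OA against control, 20.1% and 18.8% for BBR+OA against BBR, and 6.87% and 5.31% for the interaction. The lists were not tested as sets. The median over all 6 lists together lay between -0.06 and 0.04 log2 units, and those of single lists in OA against control ran from -0.19 for heme genes to 0.25 for the IL-6 and STAT3 arm.

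**Figure D5:**
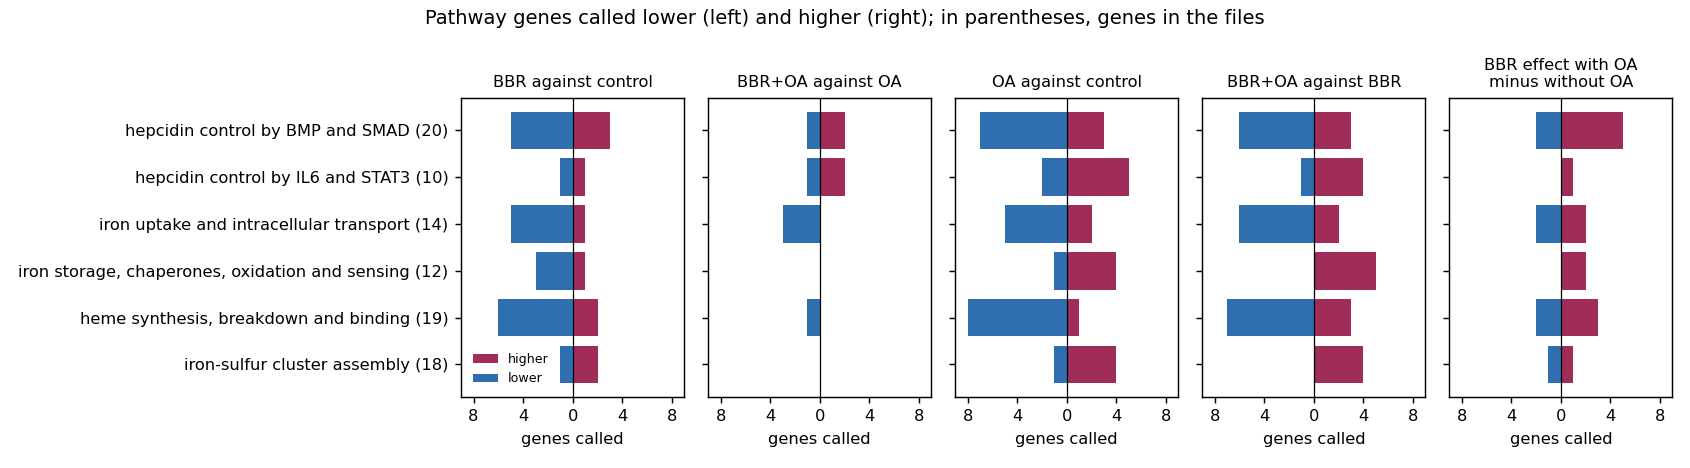
Number of genes called lower (left of 0) and higher (right of 0) at an adjusted p under 0.05 (x axis) in each of 6 iron pathway lists (y axis, number of genes in the files in parentheses), 1 panel per comparison. OA against control calls 7 of 20 BMP genes and 8 of 19 heme genes lower, while BBR+OA against OA calls at most 3 genes in any list and direction.

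Among uptake and transport genes, 13 of 14 were tested for OA against control, with 2 higher and 5 lower, against 21.3% and 21.5% of all genes. Slc39a14, the ZIP14 importer of iron not bound to transferrin, was at 152, 136 and 137 CPM in control, 218, 203 and 190 CPM with OA, 98.5, 86.6 and 93.5 CPM with BBR, and 182, 164 and 161 CPM with both. It was higher with OA (0.56 ± 0.06 log2 units) and lower with BBR (-0.59 ± 0.06, adjusted p = 1.06e-06 in edgeR), and no group overlapped another. Steap2, a metalloreductase, was at 16.6 to 21 CPM in control, 21.9 to 25.9 CPM with OA, 6.59 to 10.1 CPM with BBR and 14.2 to 16.4 CPM with both. It was lower with BBR both without OA (-1.06 ± 0.12) and with it (-0.65 ± 0.08).

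Scara5, a receptor that takes up ferritin, was the gene of this list with the largest fall with OA among those above 5 CPM. It stood at 8.41, 9.51 and 7.35 CPM in control and at 2.08, 2.10 and 2.96 CPM with OA (-1.77 ± 0.17). Mcoln1, a channel that releases iron from lysosomes, was at 51.6, 53.8 and 55.4 CPM in control and at 62.3, 75.9 and 71.2 CPM with BBR (0.39 ± 0.07), and at 51.7 to 56.9 CPM in the 6 libraries with OA.

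Among storage and sensing genes, 10 of 12 were tested and OA against control called 4 higher and 1 lower, against 21.3% and 21.5% of all genes. Lcn2, an acute-phase protein that binds bacterial iron carriers, was at 241, 278 and 260 CPM in control and at 994, 1167 and 1206 CPM with OA (2.15 ± 0.08 log2 units, adjusted p = 9.23e-11 in edgeR). It stood at 214 to 280 CPM with BBR and at 777 to 1079 CPM with both, and the difference between the BBR effects was not called (adjusted p = 0.419). Cp, the ferroxidase ceruloplasmin, was at 1756 to 1923 CPM in control and at 1149 to 1299 CPM with BBR (-0.54 ± 0.06), and with OA the BBR difference was -0.12 ± 0.04 (adjusted p = 0.136).

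Ncoa4, the receptor that delivers ferritin to lysosomes, was higher with BBR (0.22 ± 0.05) and with OA (0.21 ± 0.05). Aco1, which encodes iron regulatory protein 1, was lower with BBR (-0.24 ± 0.05) and with OA (-0.17 ± 0.05), from 276 to 301 CPM in control to 234 to 261 CPM in the other libraries.

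Among heme genes, all 19 in the files were tested, and OA against control called 1 higher and 8 lower, where 42.8% of all genes were called and 21.5% were lower, so the total called was near the background. The lower genes included enzymes of heme synthesis (Alad, Urod, Ppox and Fech, at -0.26 to -0.34 log2 units) and the heme transporters Slc46a1 (-0.59 ± 0.06) and Slc48a1 (-0.48 ± 0.05). Slc48a1 was also lower with both agents than with OA alone (-0.27 ± 0.06, adjusted p = 0.0162 in edgeR), a call lost without OA replicate 2 or BBR+OA replicate 1 or 2, at adjusted p of 0.0690 to 0.0908. Hmox1, the heme oxygenase that frees iron from heme, was at 179, 239 and 213 CPM in control and at 354, 439 and 436 CPM with BBR (0.98 ± 0.09, adjusted p = 9.92e-07). It stood at 221, 338 and 299 CPM with OA and at 216, 271 and 270 CPM with both, so BBR raised it without OA, while with OA the BBR difference was -0.19 ± 0.12 and not called. The interaction was -1.15 ± 0.18 log2 units (adjusted p = 0.000394). OA against control for Hmox1 was 0.48 ± 0.12 with overlapping libraries and was not called by DESeq2 (adjusted p = 0.0610).

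Hp, the hemoglobin-binding acute-phase protein haptoglobin, went the other way. It stood at 1871, 1970 and 1751 CPM in control, 1099.8, 953 and 1067 CPM with BBR, 1969, 1816 and 2067 CPM with OA and 1778, 1842 and 2002 CPM with both. The BBR libraries were below all others. The BBR difference was -0.82 ± 0.06 log2 units without OA (adjusted p = 9.11e-08 in edgeR) and -0.06 ± 0.06 with it (adjusted p = 0.632), and the interaction was 0.77 ± 0.09.

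Among the 18 iron-sulfur cluster genes, all tested, OA against control called 4 higher and 1 lower, against 21.3% and 21.5% of all genes. Fdx1, the mitochondrial electron carrier ferredoxin, was at 49.0, 50.9 and 53.7 CPM in control and at 103, 95.5 and 104 CPM with OA (1.02 ± 0.06 log2 units, adjusted p = 1.31e-08 in edgeR). Ciapin1 was lower with BBR (-0.31 ± 0.08) and Iba57 higher (0.33 ± 0.07), with BBR and control libraries not overlapping for either. Nubp1, a scaffold for cytosolic clusters, was lower with OA (-0.20 ± 0.06, adjusted p = 0.0138), a call lost without OA replicate 1 or 2, at adjusted p of 0.0636 and 0.0513.

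Likeness to Hamp was looked for among 9707 candidate genes with a mean of at least 5 CPM over all 12 libraries. The 5 most like Hamp in log2 CPM were Pxmp4 (Pearson r = 0.945), Lypla1 (0.927), AU040320 (0.925), Etfb (0.921) and Faah (0.897). These are descriptions over 12 libraries that share 4 treatments. Pxmp4, a peroxisomal membrane protein, had group means of 7.38 CPM in control, 7.63 CPM with OA, 6.73 CPM with BBR and 12.7 CPM with both. Among the other 9 iron genes, r with Hamp ranged from -0.541 for Slc40a1 to 0.615 for Tfrc, and it was -0.112 for Id1 and 0.0444 for Hamp2.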

How the data were processed

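RNA was sequenced from 12 libraries of mouse primary hepatocytes, 3 per group, after oligo(dT) selection. The authors deposited, per the file headers, a count and an FPKM for each of 22471 features in each library. The deposited counts are expected counts, fractional for 2862 features, and were rounded here. Build mm10 is named in the submitters' processing notes, and the aligner, the counter and the use of strand are not given in the sources used here. The authors' deposited FPKM values are scaled to gene length and depth and were used only to set genes beside each other. Groups came from the treatment label.

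Counts were tested in R 4.3.3 with edgeR 4.0.16 (filterByExpr with a minimum count of 10, TMM, glmQLFit and glmQLFTest), each comparison of groups on its own libraries and the interaction on all 12, and a gene was called at a Benjamini-Hochberg adjusted p under 0.05 over all genes tested. CPM are counts scaled to a library total of 1e+06, and 3 counts (0.127–0.194 CPM) were taken as the floor. Depth, 15485508 to 23668379 counts, bounds the precision, and counting error is only a part of the spread. The test was checked on simulated counts with the same small dispersion for every gene and no batch. That check does not cover genes with a larger spread between libraries. The named genes were the 10 genes of the set, from each of 6 lists and each comparison of groups the called gene with the largest rise and the largest fall among those of at least 5 CPM, and the 5 genes most like Hamp by Pearson correlation of log2 CPM with a prior count of 2. A few more genes of the lists were named after their values were seen. The members, lists and tests were chosen with earlier results of these data known. Names were matched by symbol, and Flvcr1 and Flvcr2 of the lists were not matched. Of 21911 Ensembl IDs, 21848 were in GENCODE M21. Alternatives were RLE and upper-quartile scaling, DESeq2 1.42.0, no filter, all groups in 1 fit, a replicate block, leaving out each library, and a 2-fold limit.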

Additional observations from a re-analysis of the deposited data

Results flagged for a closer look

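The effect of BBR with OA minus that without it was tested as the interaction over 12 libraries (edgeR, adjusted p over all 12742 genes). It was called in 18 of the genes named by the rule above. Of the iron genes these were Hamp (1.42 log2 units, adjusted p = 5.69e-06), Tfrc (0.53, adjusted p = 0.00920), Id1 (0.36, adjusted p = 0.0184) and Trf (0.25, adjusted p = 0.0303). In Hamp every BBR library was below every control library and every BBR+OA library above every OA library. Id3 and Hfe, named after their values were seen, were also called in the interaction. They are not among the 18 and were not run under the alternatives.

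Of the pathway genes, Hjv (1.21, adjusted p = 0.000189), Atoh8 (1.11, adjusted p = 0.00124), Hp (0.77, adjusted p = 3.32e-05), Cp (0.43, adjusted p = 0.000494) and Cebpa (0.41, adjusted p = 0.00831) had a less negative or more positive BBR effect with OA, and kept the call under every alternative run. Hmox1 (-1.15, adjusted p = 0.000394), Acvr1 (-0.49, adjusted p = 0.00499) and Mcoln1 (-0.39, adjusted p = 0.00840) had the opposite sign and also kept it.

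Id2 (0.45, adjusted p = 0.0118) lost the call without OA replicate 2 (0.33, adjusted p = 0.0527) or BBR+OA replicate 3 (0.39, adjusted p = 0.0503), Neo1 (-0.35, adjusted p = 0.0180) without BBR replicate 3 (-0.30, adjusted p = 0.0533), and Aco1 (0.26, adjusted p = 0.0120) without BBR+OA replicate 1 (0.22, adjusted p = 0.0527). Slc39a14 (0.32, adjusted p = 0.0167) lost it without control replicate 1, OA replicate 2, BBR replicate 2 or BBR+OA replicate 1, at adjusted p of 0.0516 to 0.0711. Fdx1 (-0.24, adjusted p = 0.0358) lost it without control replicate 1 or 2, OA replicate 1 or 3, any BBR library or BBR+OA replicate 3, at 0.0555 to 0.0993. Ciapin1 (0.32, adjusted p = 0.0441) lost it under RLE (adjusted p = 0.0550), upper-quartile scaling (adjusted p = 0.0502) and DESeq2 (adjusted p = 0.0895), and without control replicate 1 or 3, OA replicate 2 or 3, BBR replicate 1 or 3 or any BBR+OA library, at 0.0533 to 0.129.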

How the results depend on the processing

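For the genes named by rule, 1366 values were recomputed under the alternatives. Of these, 1255 kept their direction and side of the threshold, 64 lost their call, 12 gained one and 35 changed sign. The cause was not tested. The Hamp interaction and the Hamp differences of BBR+OA against OA and against BBR kept their calls throughout. Hamp in BBR against control was -0.36 with an adjusted p of 0.0586 in DESeq2, and ranged over -0.47 to -0.23 with each library left out. Hamp in OA against control ranged over -0.30 to -0.14. Of the 10 genes, BBR against control called 5 (2 to 5 with a library left out, 2 without control replicate 2 and 3 without BBR replicate 1 or 2). BBR+OA against OA called 1, and 2 under RLE, DESeq2, no filter, all 4 groups in 1 fit and the replicate block (1 to 2 with a library left out, 2 without OA replicate 1 or 3). The interaction called 4 (2 to 4 with a library left out, 2 without OA replicate 2 or replicate 1 or 3 of BBR+OA). Asking also for a 2-fold change left 0 for BBR against control, 0 for OA against control, 1 for BBR+OA against BBR and 1 for the interaction. The share of all genes that met this stricter limit was not computed, so these counts have no background to be read against.

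The values that changed sign were uncalled. Hamp2 ranged over -0.011 to 0.41 in BBR against control, -0.17 to 0.14 in BBR+OA against OA, -0.11 to 0.20 in BBR+OA against BBR and -0.38 to 0.041 in the interaction with libraries left out. Trf in BBR+OA against BBR ranged over -0.035 to 0.037 with libraries left out, and was 0.00053 under RLE, 0.0044 in DESeq2, 0.0040 with no filter, 0.0012 in 1 fit and 0.0012 with the replicate block. Fth1 in OA against control was -0.0098 under upper-quartile scaling. In the interaction with libraries left out, Slc40a1 ranged over -0.10 to 0.038, Fth1 over -0.043 to 0.071 and Bmp6 over -0.14 to 0.15, and Bmp6 was -0.015 under RLE, -0.0078 under upper-quartile scaling, -0.013 in DESeq2 and -0.021 with the replicate block.

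Libraries with the same number correlated at 0.0234 to 0.155 in their deviations from the group means. In 11 of 12 comparisons a library matched its own number best. The labels do not say what the numbers stand for. The main tests had no replicate block, so they do not account for spread shared by libraries of the same number. The replicate block raised the number of all genes called for BBR+OA against OA from 563 to 1333. That number was 216 to 632 with libraries left out, 249 without OA replicate 2, and 373, 230 and 216 without replicates 1, 2 and 3 of BBR+OA. For the interaction it was 1551, 1027 without OA replicate 2 and 1028 without BBR replicate 2. By the mean FPKM of all 12 libraries, Bmp6 and Hamp2 changed places and 8 of 10 genes kept theirs. With Spearman's rho, 1 of the 5 genes most like Hamp (Faah) was chosen again.

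Hamp2 (0.724 to 1.42 CPM), Bmp6, Smad6 and Erfe have few counts, and differences of the size seen for Id1 were not detectable at this depth for Hamp2.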
